A study of Mus musculus with 12 samples.

Results

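The interaction of the ErbB2 and ERRα alleles was measured as the amount by which the effect of the ErbB2 KI allele on a transcript differed between hearts that lacked ERRα and hearts that had it. For each gene it is the difference KI:KO minus ERRα KO, less the difference ErbB2 KI minus WT, on the log2 scale. A value of 0 means that both allele effects added up on that scale, a positive value that KI:KO hearts lay above the sum of the single effects, and a negative value that they lay below it. Every gene with a row of its own on the array was a member, 22180 of 22180, and all 12 arrays of the series entered, 3 for each of the 4 groups.

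RNA came from powdered frozen heart tissue of male FVB mice aged 15 weeks, 1 mouse per array, and was hybridised to Affymetrix Mouse Gene 2.0 ST arrays. WT mice carried neither change. ErbB2 KI mice carry a knocked-in Erbb2 cDNA that gives low receptor levels in every tissue, ERRα KO mice lack Esrra in every tissue, and KI:KO mice come from the cross of both lines. No allele is limited to cardiomyocytes, so the values include any effect of other organs on the heart, and in RNA of a whole tissue fewer cells of a type and less RNA per cell cannot be told apart. The paper does not say whether the groups were littermates. An effect credited below to an allele therefore cannot be told apart from another inherited difference between the lines.

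ErbB2 is a receptor tyrosine kinase that pairs with ErbB3 or ErbB4 once these bind neuregulin, and it signals through PI3K-AKT-mTOR and ERK to keep adult cardiomyocytes alive. ERRα is an orphan nuclear receptor that works with the coactivators PGC-1α and PGC-1β to drive genes of fatty acid oxidation, the citric acid cycle and the respiratory chain. Crossing both changes asks whether loss of one pathway alters what loss of the other does, the question of crosstalk that the study posed.

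The array medians lay between 4.58 and 4.65 (log2), and any pair of arrays correlated at 0.975 to 0.988 across rows. Heart tissue was plain from 10 cardiomyocyte markers, whose mean log2 value was 12.14 to 12.32 on every array. Esrra was 7.57 ± 0.17 (SD, n = 3) in WT, 6.38 ± 0.06 in ERRα KO, 7.55 ± 0.10 in ErbB2 KI and 6.25 ± 0.10 in KI:KO hearts, and Erbb2 was 6.47 ± 0.08, 6.61 ± 0.19, 5.76 ± 0.17 and 5.81 ± 0.16 in the same order. Neither targeted transcript showed an interaction at the threshold used (Esrra -0.12, 95% interval -0.44 to 0.20; Erbb2 -0.09, interval -0.48 to 0.29). Whether the probes of these rows lie in the altered part of each allele was not checked, so the remaining signal gives no measure of remaining transcript. A set of 4 arrays, 1 in each group (KI:KO replicate 3, ErbB2 KI replicate 3, WT replicate 2 and ERRα KO replicate 2), deviated together from the group means. It was chosen as the arrays on 1 side of the direction in which those deviations varied most (26.3% of their variance). That choice favours the pairwise correlations of 0.18 to 0.25 across genes between them. The SD of the values was 2.16 to 2.19 on these arrays and 2.2 to 2.23 on the others. Results that rest on one of them are given with and without it.

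Of 22180 genes tested, 2 passed in the limma fit (called, meaning p under 0.05 after Benjamini-Hochberg adjustment over all genes), which is 0.00902%. These were Kcnt2, with a negative interaction, and Ddit4, with a positive one. Without adjustment, 1565 genes (7.06%) had p under 0.05. At the methods' threshold, which asks for p under 0.05 without adjustment together with a change of 1.2-fold or more, there were 1547 genes (6.97%), 753 with a positive (3.39%) and 794 with a negative interaction (3.58%). When each array was centred on its median instead of being used as deposited, that split became 1461 positive and 442 negative, and the median interaction of all genes moved from 0.002 to 0.076. Counts of genes above or below 0 therefore include values within that shift. A direction is otherwise read below only for values well beyond it. The precision was limited by 3 arrays a group. The standard error of an interaction had a median of 0.186, against 0.132 for a difference between 2 groups, and the 95% interval reached a median of 0.407 to either side.

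The differences that make up the interaction had unlike numbers of genes called. The ErbB2 KI allele had 3 genes called against WT (0.0135% of genes, Kcnt2, Hccs at -0.85 and Msl3 at -0.94). It had 73 when ERRα was also missing (KI:KO against ERRα KO, 0.329%). Loss of ERRα had 521 genes called against WT (2.35%) and 867 against ErbB2 KI hearts (3.91%). Counts of calls do not test whether 2 effects differ. The interaction tests that for each gene, and 2 genes were called. Set side by side across all 22180 genes, the effect of the ErbB2 KI allele with ERRα and its effect without ERRα, which share no array, had a Pearson correlation of 0.0939 (Spearman 0.053), and both effects of ERRα loss had one of 0.405 (Spearman 0.269). Genes do not vary independently of each other, so these correlations only describe the arrays. That of the ErbB2 KI effects was 0.0439 without WT replicate 2, 0.0182 without the set of 4 arrays, 0.0275 over all rows and 0.161 without dim genes (those with a mean below the 40th percentile), and that of the ERRα effects was 0.193 over all rows. The SD of the ErbB2 KI effect over genes was 0.180 in hearts with ERRα and 0.215 in hearts without it. The median standard error of such a difference was 0.132, so noise lowers these correlations by an amount that was not measured.

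**Figure D1:**
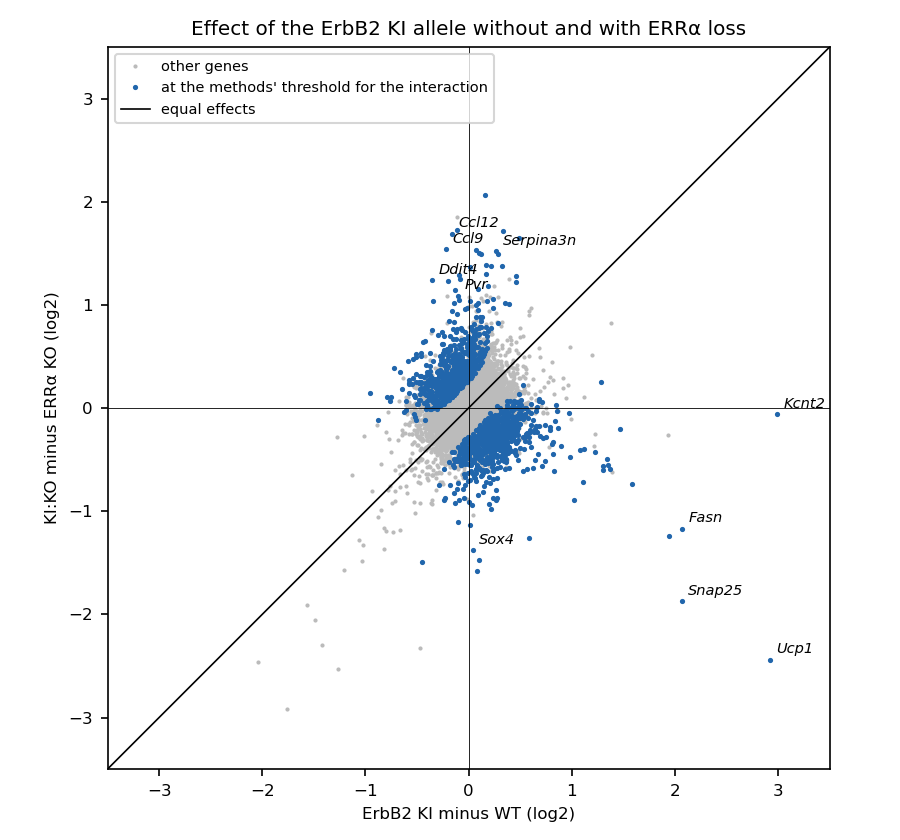
Each point is 1 of 22180 genes, with the log2 difference ErbB2 KI minus WT on the x axis and KI:KO minus ERRα KO on the y axis, blue for the 1547 genes at the methods' threshold for the interaction and grey for the rest. The line marks equal effects, from which Kcnt2 and Ucp1 lie far below at the right, while Ddit4, Pvr, Ccl9 and Ccl12 lie above it near 0 on the x axis.

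Kcnt2 encodes a sodium-activated potassium channel subunit (Slick) that passes outward current in excitable cells. Its log2 values were 4.12, 4.06 and 4.46 in WT hearts, 7.16, 7.36 and 7.49 in ERRα KO, 7.29, 7.32 and 7.02 in ErbB2 KI, and 7.29, 7.17 and 7.38 in KI:KO hearts. The 3 WT hearts thus stood far below all 9 others, and the 3 mutant groups overlapped. Kcnt2 was 2.99 higher in ErbB2 KI than in WT hearts (adjusted p = 1.1e-06), whereas KI:KO minus ERRα KO was -0.06 (95% interval -0.35 to 0.24). Likewise, Kcnt2 was 3.12 higher in ERRα KO than in WT hearts (adjusted p = 3.6e-07), and KI:KO minus ErbB2 KI was 0.07. All 3 WT values lay below the cutoff for dim rows (4.63), where a change is understated, so the size of these differences is less certain than their sign. The interaction was -3.05 (SE 0.19, 95% interval -3.46 to -2.64, adjusted p = 4.6e-05), and it was called with each of the 12 arrays left out in turn (adjusted p between 4.5e-05 and 0.000508). On the linear scale, where a sum of differences replaces a product of folds, the interaction kept its sign (-136) but was not called (adjusted p = 0.0859). No gene was called in that fit. Kcnt2 lies on chromosome 1 of GRCm38.p6, and of its 60 measured neighbours within 5 Mb, 4 were at the methods' threshold for the interaction (6.67%, against 6.97% of all genes), with Rgs2, Gm4788 and Gm19705 at the smallest p (interactions 0.52, 0.60 and -0.28, adjusted p at least 0.625).

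Ddit4 encodes REDD1, an inhibitor of mTORC1 that cells induce under hypoxia, energy stress and glucocorticoids. It read 6.85, 6.86 and 6.93 in WT, 6.29, 6.64 and 6.24 in ERRα KO, 6.76, 6.47 and 6.36 in ErbB2 KI, and 7.56, 7.48 and 7.86 in KI:KO hearts. All 3 KI:KO hearts lay above the 9 other hearts, and every heart of both single models lay below every WT heart. The difference was 1.24 for KI:KO against ERRα KO (adjusted p = 0.0036) and 1.10 against ErbB2 KI (adjusted p = 0.00133), while ErbB2 KI minus WT was -0.35 (adjusted p = 0.898) and ERRα KO minus WT -0.49 (adjusted p = 0.115). The interaction was 1.59 (SE 0.20, 95% interval 1.16 to 2.03, adjusted p = 0.0495). That call stood at the threshold. It was lost in 8 of the 12 fits with an array left out (each WT array, ErbB2 KI replicate 2, ERRα KO replicates 1 and 3, KI:KO replicates 1 and 2), with adjusted p up to 0.191 and an interaction of 1.48 to 1.72 throughout. Ddit4 lies on chromosome 10, where 6 of its 85 neighbours (7.06%) were at the methods' threshold, Ccdc138, Fabp7 and Mypn with the smallest p (interactions -0.67, -1.17 and 0.39).

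The sequences upstream of these genes are shown because they were the only genes called. Each is the 250 bases before the RefSeq transcription start on GRCm38.p6, read 5′ to 3′ on the strand of the gene, chr1:140245468-140245717 (plus strand) for Kcnt2 and chr10:59951771-59952020 (minus strand) for Ddit4. Capitals mark matches, on either strand, to 5 motifs spelled as AGAACA (a single arm of the glucocorticoid receptor element), ACGTG (hypoxia core), TGATGNAAT (C/EBP-ATF element), TNAAGGTCA (ERR element) and TCACNCCAC (sterol element).
Kcnt2: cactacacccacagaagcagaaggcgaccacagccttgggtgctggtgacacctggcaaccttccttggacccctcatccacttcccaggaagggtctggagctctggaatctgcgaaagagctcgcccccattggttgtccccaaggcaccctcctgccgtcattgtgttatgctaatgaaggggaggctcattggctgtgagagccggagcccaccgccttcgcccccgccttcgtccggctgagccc
Ddit4: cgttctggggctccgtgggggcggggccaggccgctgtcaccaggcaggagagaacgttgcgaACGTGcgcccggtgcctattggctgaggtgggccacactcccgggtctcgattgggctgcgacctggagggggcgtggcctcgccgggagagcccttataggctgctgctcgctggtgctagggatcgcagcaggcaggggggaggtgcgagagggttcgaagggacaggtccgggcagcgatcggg
The Ddit4 window holds 1 match, to ACGTG, which starts 187 bases before the transcription start, and the Kcnt2 window holds none. Of 32851 RefSeq promoter windows of this length, 16.6% hold ACGTG, 16.1% AGAACA, 1.14% the ERR element, 1.05% the sterol element and 0.816% the C/EBP-ATF element. A match describes the letters and not a bound site.

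Of the 15 genes with the smallest p of a positive interaction, KI:KO stood apart as the high group in 13, against 11.8% of all genes. Choosing genes by a positive interaction itself favours that form, so the group values below only describe the genes chosen. Apart from Ddit4 none passed over all genes (adjusted p between 0.0679 and 0.211 for the 14 genes that followed Ddit4). Pvr, the nectin-like adhesion receptor CD155, read 7.30, 7.48 and 7.62 in WT, 7.23, 7.40 and 7.21 in ERRα KO, 7.33, 7.35 and 7.41 in ErbB2 KI, and 8.30, 8.58 and 8.24 in KI:KO hearts. KI:KO hearts did not overlap with the others, among which the 3 groups did. The interaction of Pvr was 1.2 (interval 0.84 to 1.55, adjusted p = 0.0679), and it was called when KI:KO replicate 3 (adjusted p = 0.0294) or ErbB2 KI replicate 3 (adjusted p = 0.0439) was left out. KI:KO minus ERRα KO was 1.09 for Pvr and passed in that comparison (adjusted p = 0.00247). The other measured nectin family members and receptors did not share this value, 0 of 12 being at the methods' threshold, which held 6.97% of all genes.

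Chemokines and secreted injury proteins followed. Ccl9, a monocyte-attracting chemokine, read 7.37, 7.59 and 7.37 in WT, 8.0, 7.74 and 7.53 in ERRα KO, 7.32, 7.15 and 7.22 in ErbB2 KI, and 9.72, 9.40 and 8.76 in KI:KO hearts (interaction 1.76, adjusted p = 0.157). Ccl12, the chemokine MCP-5, had an interaction of 1.85, and all its KI:KO values (6.55, 6.25 and 6.24) lay above the highest other value of 4.81. Lcn2, the siderophore-binding lipocalin, was 7.05 to 7.46 in KI:KO and 5.67 to 6.31 elsewhere (interaction 1.22). KI:KO hearts were thus the high group for each of them. Serpina3n, a secreted protease inhibitor, differed in that ERRα loss alone also raised it (0.94, adjusted p = 0.00953), from 8.47 to 8.60 in WT to 9.19 to 9.77 in ERRα KO and 10.67 to 11.25 in KI:KO hearts, with 8.75 to 8.86 in ErbB2 KI (interaction 1.25, adjusted p = 0.159). Ms4a4a, a membrane protein of macrophages, had an interaction of 1.37, with 6.59 to 6.76 in KI:KO hearts and at most 5.58 in the others. Probe sets of the Ccl, Ms4a and Serpina3 families can share signal between near-identical copies, so their single members are less certain.

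The remaining genes of this group were Fam107a (actin-binding, 0.99), Epn3 (epsin 3, an endocytic adaptor, 0.90), Krt7 (a keratin, 0.71), Ybx2 (an RNA-binding Y-box protein of germ cells, 0.68), Gda (guanine deaminase, 1.03), Cdkn1a (the cell cycle inhibitor p21, 1.27), St3gal5 (GM3 ganglioside synthase, 0.68) and Gpr65 (a proton-sensing receptor, 0.78). Fam107a has a second, dimmer row on the array with an interaction of -0.25, and the mean of both rows gave 0.37. Epn3 was low in ErbB2 KI hearts alone, with 7.66, 7.66 and 7.70 there and 8.14 to 8.60 in all others, so that the lower value of ErbB2 KI was not seen without ERRα (KI:KO minus ERRα KO 0.11). Ybx2 was 5.02 to 5.17 in ERRα KO, 5.43 to 5.63 in WT and ErbB2 KI and 5.82 to 5.98 in KI:KO hearts, so ERRα KO and KI:KO stood at opposite ends. Cdkn1a was 9.45 to 9.96 in KI:KO hearts and at most 8.70 elsewhere, and its interaction was 0.77 without the set of 4 arrays.

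**Figure D2:**
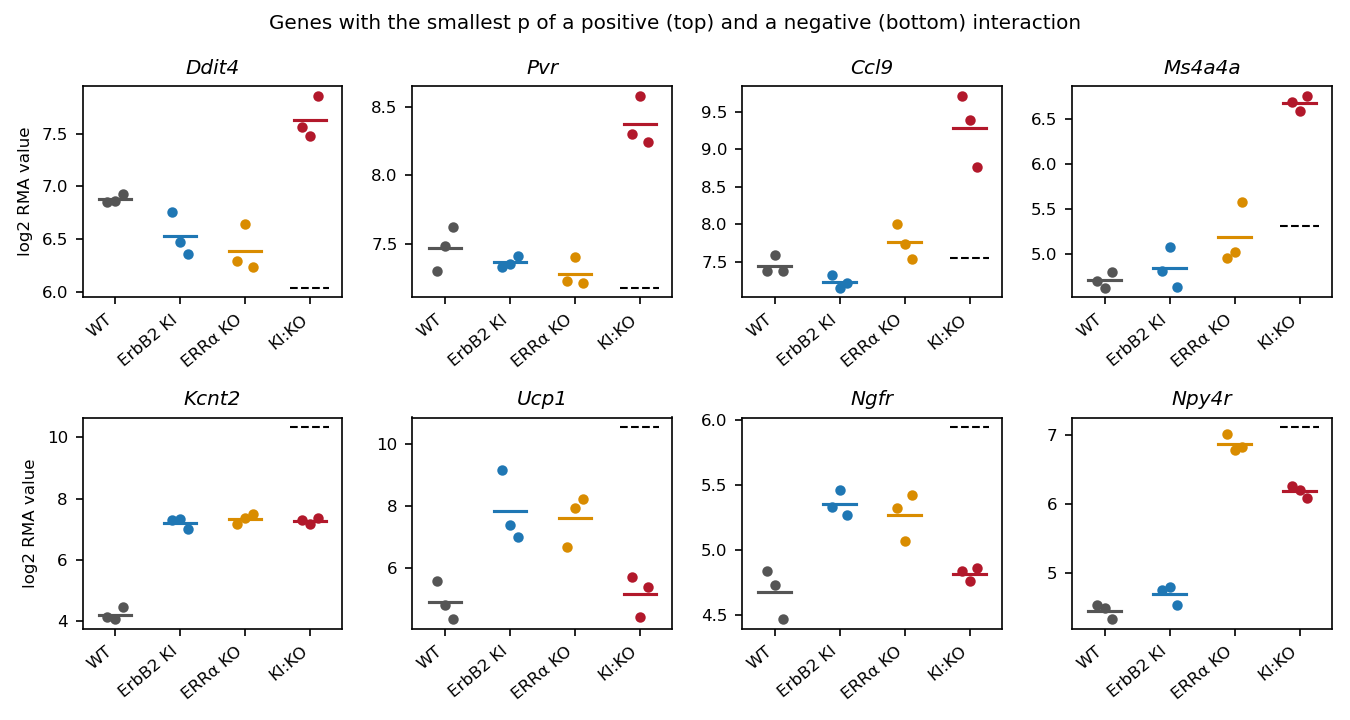
Log2 values on each array (points) and group means (solid bars) of the 4 genes with the smallest p of a positive interaction (Ddit4, Pvr, Ccl9, Ms4a4a) and of a negative one (Kcnt2, Ucp1, Ngfr, Npy4r). The dashed line is where the KI:KO mean would lie if both single effects added up, below the KI:KO points in the upper row and above them in the lower row.

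Of the 15 genes with the smallest p of a negative interaction, 6 were high in both single models, with WT and KI:KO hearts together below them. Over all genes that share was 3.84%, and choosing genes by a negative interaction itself favours that form. Ucp1, the uncoupling protein of brown fat mitochondria, read 5.58, 4.81 and 4.35 in WT, 6.69, 7.93 and 8.21 in ERRα KO, 9.15, 7.37 and 6.99 in ErbB2 KI, and 5.70, 4.44 and 5.38 in KI:KO hearts. All 6 hearts of the single models lay above the 6 WT and KI:KO hearts. The interaction of -5.36 was the most negative of all genes, with a wide interval (-7.11 to -3.61, SE 0.80, adjusted p = 0.11). ERRα loss raised Ucp1 against WT by 2.7 (adjusted p = 0.0284) and its value against ErbB2 KI was -2.66 (adjusted p = 0.0219). Ngfr, the p75 neurotrophin receptor, was 4.47 to 4.84 in WT, 5.07 to 5.42 in ERRα KO, 5.27 to 5.46 in ErbB2 KI and 4.76 to 4.86 in KI:KO hearts (interaction -1.12, adjusted p = 0.11). Ptger3, a prostaglandin E2 receptor (-1.27), and the olfactory receptor Olfr978 (-1.14) took the same form, as did the precursor of Mir690 (-1.15), a dim row with a mean below the 40th percentile.

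Other negative interactions had other forms. Npy4r, the receptor for pancreatic polypeptide, read 4.54, 4.50 and 4.33 in WT, 7.02, 6.79 and 6.83 in ERRα KO, 4.75, 4.8 and 4.54 in ErbB2 KI, and 6.26, 6.21 and 6.09 in KI:KO hearts. ERRα loss raised it in both backgrounds, by 2.42 against WT (adjusted p = 3.6e-07) and by 1.49 against ErbB2 KI (adjusted p = 3e-05), and the interaction was -0.93 (adjusted p = 0.157). Sox4, a transcription factor, was 6.82 to 7.21 in KI:KO hearts and 7.81 to 8.56 in the 9 others (-1.42), and its second, dimmer row gave -0.49. Slc36a2, an amino acid transporter, was 6.88 to 6.94 in KI:KO and 7.39 to 7.72 elsewhere (-0.72). Cspg4b (-1.66, a dim row) was also lowest in KI:KO hearts. Itih5, a hyaluronan-binding matrix protein (-0.68), and Flcn, the tumour suppressor folliculin (-0.61), were highest in ERRα KO, Trarg1, a regulator of the glucose transporter GLUT4 in fat (-0.82), was highest in ErbB2 KI, and Jph3, a junctophilin (-0.89, dim), was lowest in WT.

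Fasn, fatty acid synthase, had an interaction of -3.24 (adjusted p = 0.159), with 7.48, 7.55 and 7.26 in WT, 8.37, 8.74 and 8.87 in ERRα KO, 10.21, 9.90 and 8.36 in ErbB2 KI, and 7.61, 7.01 and 7.84 in KI:KO hearts. ErbB2 KI replicate 3 was the lowest of its group, and it is in the set of 4 arrays that deviated together. Without it, 16 genes were called for the interaction, Fasn among them (-3.80, adjusted p = 0.00102), together with the lipid synthesis genes Acaca, Acly, Elovl6, Scd1 and Slc25a1 and the adipocyte-enriched Car3, Cdo1 and Lgals12. These were named after their values were seen. With all 12 arrays their interactions were -1.51 for Acaca, -0.96 for Acly, -1.90 for Elovl6, -2.32 for Scd1, -1.15 for Slc25a1, -3.18 for Car3, -1.86 for Cdo1 and -1.96 for Lgals12 (adjusted p between 0.291 and 0.404). In Scd1, for example, ErbB2 KI hearts read 10.37, 9.95 and 8.74 against 7.80 to 8.67 in WT, 8.55 to 9.08 in ERRα KO and 7.93 to 8.42 in KI:KO hearts.

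Adipocyte markers moved with these genes. Of 8 measured markers 5 were at the methods' threshold with a negative interaction (62.5%, against 3.58% of all genes in that direction). These were Ucp1, Plin1, Cidec, Adipoq and Retn, none was positive, and the median of all 8 was -1.09. The summed linear level of all 8 was 531 to 545 in WT, 668 to 824 in ERRα KO, 677 to 1480 in ErbB2 KI and 418 to 565 in KI:KO hearts. RMA values have no true 0, so no marker could be called absent. Adipoq, the adipokine adiponectin, was 4.99 to 5.29 in WT, 5.63 to 6.10 in ERRα KO, 5.09 to 6.13 in ErbB2 KI and 4.85 to 5.56 in KI:KO hearts. The part of fat in or around the heart samples in the values of Ucp1, Fasn and the genes beside them was not tested. In the list of 17 white adipocyte genes, 7 were at the methods' threshold, all negative (Trarg1 -0.82, Car3 -3.18, Plin1 -1.27, Cidec, Adipoq, Retn and Thrsp), with a median of -0.53, and leaving out an array gave 5 to 8. Among 14 brown adipocyte genes, 2 were negative (Ucp1 and Elovl3, a fatty acid elongase, -1.27) and 2 positive (Dio2, the deiodinase that activates thyroid hormone, 0.89, and Lhx8), with a median of -0.03, and without ErbB2 KI replicate 3 there were 4 negative. A second, dimmer row of Dio2 had the opposite sign (-0.34).

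Sorting the 4 group means of each gene and splitting them at the widest gap describes these forms over all genes at the methods' threshold. KI:KO stood apart as the high group in 316 of 1547 genes (20.4%) and as the low group in 189 (12.2%). Both single models lay above WT and KI:KO in 228 (14.7%) and below in 135 (8.73%). Over all 22180 genes the same shares were 11.8%, 11.5%, 3.84% and 3.13%, and the contrast itself favours genes in which both single models lie on one side. The other shares were close to or below those over all genes. ErbB2 KI was the high group in 7.76% (7.93% of all genes) and the low group in 3.81% (6.59%), ERRα KO in 8.79% (8.30%) and 8.99% (8.24%), and WT in 5.30% (8.94%) and 6.98% (7.59%). The remaining 35 genes, 2.26% against 22.2% of all, split in another way. Kcnt2 was of the WT form, low in WT alone.

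Genes that respond to glucocorticoids had the highest median interaction of the 28 gene lists. They include Fkbp5, a chaperone of the glucocorticoid receptor, and Mt1 and Mt2, the metallothioneins, and several members were listed with earlier results of these arrays known, so their count is not independent evidence. Of 27 members, 13 were at the methods' threshold, all positive (48.1%, against 3.39% of all genes in that direction), 1 of them called (Ddit4), and the median was 0.47. Fkbp5 read 5.90, 5.91 and 6.04 in WT, 6.39, 6.32 and 6.20 in ERRα KO, 6.54, 6.27 and 6.40 in ErbB2 KI, and 7.51, 7.70 and 7.36 in KI:KO hearts (interaction 0.76, adjusted p = 0.27). Mt2 rose with ERRα loss alone, from 8.86 to 9.42 in WT to 9.90 to 10.56 in ERRα KO (adjusted p = 0.0245), and was 11.19 to 11.75 in KI:KO hearts (interaction 1.06, adjusted p = 0.43). Both were named after their values were seen. Gadd45g, Lyve1, Cebpd, Sgk1, Mt1 and Dusp1 were the other members at the threshold beside those named above. Of the 27 members 20 were above 0 and 7 below, and none of those below was at the threshold. The lowest was Pdk4, the kinase that inhibits pyruvate dehydrogenase (-0.33, adjusted p = 0.76), and Angptl4 and Hif3a had -0.17 each. Tsc22d3 (0.11), Per1 (0.35) and Zbtb16 (0.78) were positive without reaching the threshold. The mean level of the list was 7.49 to 7.54 in WT, 7.65 to 7.82 in ERRα KO, 7.57 to 7.70 in ErbB2 KI and 8.29 to 8.41 in KI:KO hearts, and leaving out any array left 12 to 14 members at the threshold.

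**Figure D3:**
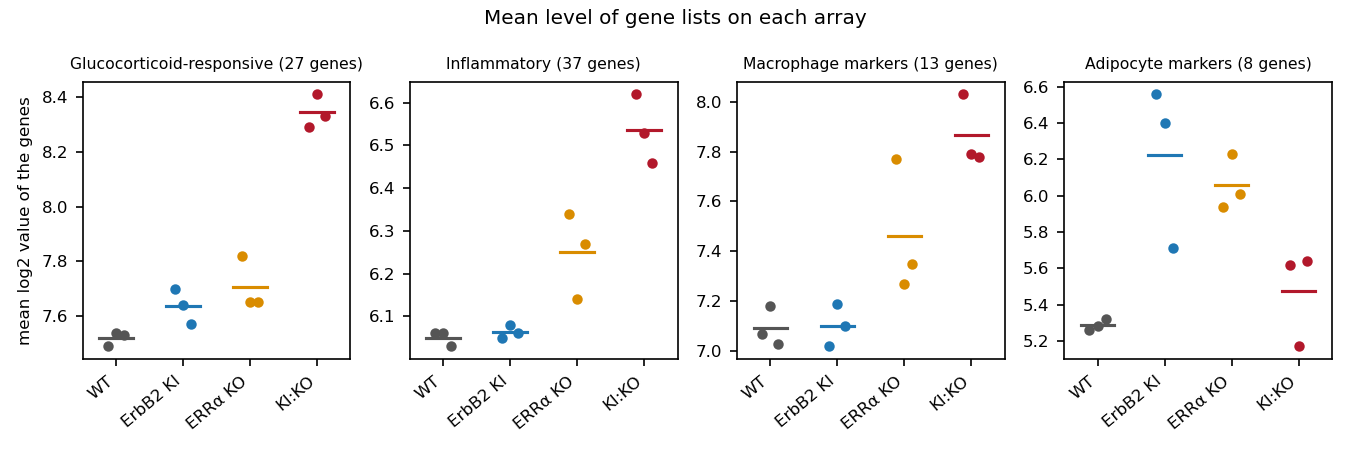
Mean log2 value on each array (points, with the group mean as a bar) of 27 glucocorticoid-responsive genes, 37 inflammatory genes, 13 macrophage markers and 8 adipocyte markers. KI:KO hearts are highest in the first 3 panels, by the narrowest margin for macrophage markers (7.78 against 7.77 in 1 ERRα KO heart), and adipocyte markers are highest in the single models, where 1 ErbB2 KI heart lies apart from the other 2.

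Other stress lists that share Ddit4 showed fewer members at the methods' threshold, which held 3.39% of all genes as positive and 3.58% as negative. In either direction it held 23.8% of the hypoxia, 9.09% of the integrated stress response, 15.8% of the p53 and 16.7% of the mTORC1 list. It held 32% of the immediate-early list and 6.97% of all genes. In the hypoxia list 3 of 21 were positive at the threshold (Ddit4, P4ha2, a collagen prolyl hydroxylase, 0.57, and Slc2a1, the glucose transporter GLUT1, 0.48) and 2 negative (Bhlhe40, a clock and hypoxia repressor, -0.68, and Vegfa), with a median of 0.03, and 5 were positive without KI:KO replicate 1 or 2. In the integrated stress response list 2 of 22 were positive (Ddit4 and Atf3), Aldh18a1, an enzyme of proline synthesis, having 0.44, and in the p53 list 3 of 19 (Ddit4, Cdkn1a and the death receptor Fas, 0.44). Of 30 mTORC1 pathway genes, 2 were positive (Ddit4 and Lamtor5) and 3 negative, namely Flcn, its partner Fnip2 (-0.83) and Ddit4l. Among 25 immediate-early genes 8 were positive and none negative, with a median of 0.35, led by Ier5 (0.86), Zfp36, which degrades cytokine mRNAs (0.79), and Junb (0.61), and leaving out single arrays gave 4 to 9, with 4 when WT replicate 2, WT replicate 3 or ErbB2 KI replicate 3 was left out and 5 without KI:KO replicate 1. Atf3, an injury-induced repressor, read 8.47 and 8.32 in KI:KO replicates 1 and 2, 6.85 in replicate 3 and 6.61 to 7.03 in the other groups. Its interaction was 1.10 (adjusted p = 0.654), and 1.62 without KI:KO replicate 3 (adjusted p = 0.00808).

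Of 37 inflammatory genes 9 were positive and 1 negative at the methods' threshold (27% in either direction, against 6.97% of all genes), with a median of 0.20. The share was 33.3% of the acute-phase list, 30.8% of the macrophage markers and 8.33% of the interferon-stimulated list. The positive inflammatory genes were Ccl9, Ccl12, Tlr7, Cd14, Il4ra, Osmr, Ccl7, Il33 and Ccl2, and Il15ra was the negative one (3 were negative without ERRα KO replicate 2). Tlr7, a receptor for single-stranded RNA, was low in ErbB2 KI hearts alone, as Epn3 was, with 5.17, 5.25 and 5.39 there and 5.98 to 6.54 in all others (interaction 0.76, adjusted p = 0.354). In the acute-phase list 6 of 18 were positive and none negative (Lcn2, Serpina3n, Saa3, Timp1, Ahsg and Lbp), with a median of 0.40, and 3 were positive without WT replicate 1 or without ErbB2 KI replicate 3. Saa3, an acute-phase apolipoprotein, was 5.10 to 6.59 in KI:KO hearts and 3.77 to 4.46 elsewhere (1.13, a dim row), the high value being that of replicate 1, without which the interaction was 0.65. Macrophage markers moved in the same direction, 4 of 13 positive at the threshold (Cd14, Itgam, Mrc1 and Fcgr1) with a median of 0.42, and their summed level was 2420 to 2540 in WT, 2770 to 4450 in ERRα KO, 2460 to 2750 in ErbB2 KI and 4140 to 5390 in KI:KO hearts. Leaving out single arrays moved that count between 2 (without ERRα KO replicate 2 or KI:KO replicate 1) and 10 (without ERRα KO replicate 1). The part of macrophage number in the chemokine and Ms4a4a values was not tested. Of 24 interferon-stimulated genes, 2 were positive (Oasl2, 0.82, and Xaf1, 0.66, which had 0.43 without KI:KO replicate 3), and Ifih1, a sensor of viral RNA, had -0.46 (adjusted p = 0.716).

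Genes of collagens and fibrosis had a median of 0.35, with 26 of 31 above 0, some within the shift of median centring (Eln at 0.03). The threshold held 3.39% of all genes as positive, and 5 of the list (16.1%), none of them negative. These were Ccn2, a matricellular target of TGF-β, Col4a2, a basement membrane collagen (0.43), Lox, the collagen cross-linking oxidase (1.46), Timp1 and Tgfb3. Ccn2 rose with ERRα loss alone, from 8.02 to 8.11 in WT to 8.74 to 9.09 in ERRα KO (adjusted p = 0.00489), and was 9.67 to 9.89 in KI:KO hearts against 8.08 to 8.57 in ErbB2 KI (interaction 0.52, adjusted p = 0.602). The second, dimmer row of Ccn2 gave -0.14. For several others KI:KO replicate 1 stood apart. Lox was 8.71 there and 6.42 and 7.06 in the other KI:KO hearts, against 5.59 to 6.14 elsewhere, and Timp1, an inhibitor of matrix proteases, was 9.27, 7.03 and 6.01 against 5.12 to 5.52. Without KI:KO replicate 1 the interaction of Lox was 0.80 and the list had 3 positive members and a median of 0.09, without KI:KO replicate 3 it had 12 and 0.51, and 9 were positive without ERRα KO replicate 1 or KI:KO replicate 2. It had 2 when WT replicate 1, WT replicate 3, ERRα KO replicate 2 or ErbB2 KI replicate 3 was left out, and 3 without ERRα KO replicate 3 or ErbB2 KI replicate 1. Among 25 cell cycle genes 1 was at the threshold (Bub1, 0.86, a dim row), with Mcm2 at 0.47 and Aurka at 0.30, and the median was 0.24 (3 were positive without KI:KO replicate 2). Bub1 read 4.33 in KI:KO replicate 1 and 3.33 in both others, and without that heart Bub1 had 0.53, Mcm2 0.28 and Aurka 0.10. Aurka had 0.19 without ERRα KO replicate 2. With all 12 arrays 4% of the cell cycle list was at the threshold, against 6.97% of all genes.

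**Figure D4:**
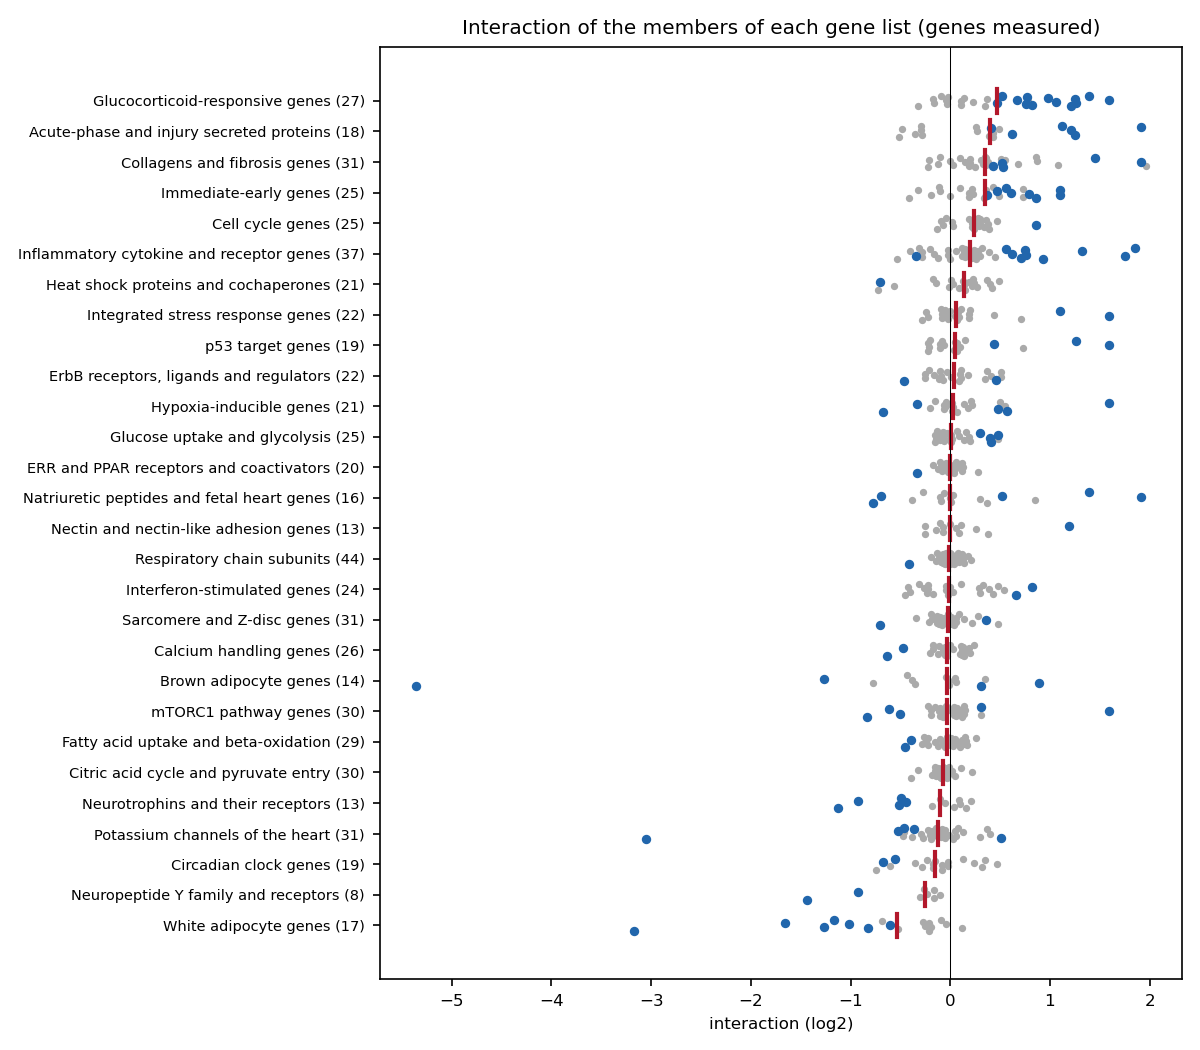
Interaction (log2) of each measured member of 28 gene lists, blue where the member was at the methods' threshold, with the median of the list as a red bar and the number of members in brackets. Glucocorticoid-responsive genes lie highest (median 0.47) and white adipocyte genes lowest (-0.53), and the metabolic lists cluster around 0, Ucp1 standing alone at -5.36.

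For metabolic genes that ERRα is known to drive, few list members were at the methods' threshold, which held 6.97% of all genes. The share was 0% in the citric acid cycle list, 6.9% in the fatty acid list and 2.27% in the respiratory chain list. The 95% interval reached a median of 0.407 to either side, so smaller interactions could be missed. In the citric acid cycle and pyruvate list none of 30 genes was at the methods' threshold, although 26 were below 0 (median -0.07, within the shift that median centring brings). Idh2, the mitochondrial isocitrate dehydrogenase, was 12.56 to 12.60 in WT, 12.21 to 12.30 in ERRα KO, 12.47 to 12.50 in ErbB2 KI and 11.81 to 12.10 in KI:KO hearts (interaction -0.19, interval -0.46 to 0.09), and Pcx, pyruvate carboxylase, had -0.39. Among 29 genes of fatty acid uptake and oxidation 2 were negative at the threshold, and the median was -0.03. These were Slc27a1, a fatty acid transporter (-0.46), and Hadh, which encodes a dehydrogenase of short-chain β-oxidation. Hadh was 11.03 to 11.13 in WT, 10.70 to 10.75 in ERRα KO, 10.92 to 11.11 in ErbB2 KI and 10.09 to 10.43 in KI:KO hearts (interaction -0.39, interval -0.70 to -0.08, adjusted p = 0.602). Acad9, which also assembles complex I, had -0.24.

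Of 44 respiratory chain subunits 1 was at the threshold (Atp5g1, -0.41), with Atp5d at 0.21 and Ndufv1 at -0.15, and the median was -0.01. Among receptors and coactivators 1 of 20 was at the threshold, the coactivator gene Ppargc1b (-0.33), with Esrrb at 0.28 and Esrrg at 0.12. Of 25 genes of glucose uptake and glycolysis 4 were positive and none negative (Slc2a1, Pfkl, the liver-type phosphofructokinase, 0.40, Gys1, glycogen synthase, 0.30, and Pgam1), with a median of 0.01, and 2 were positive without ErbB2 KI replicate 3. Slc2a1 rose with ERRα loss in both backgrounds, from 7.28 to 7.32 in WT to 8.16 to 8.31 in ERRα KO (adjusted p = 0.00024) and from 7.20 to 7.33 in ErbB2 KI to 8.50 to 8.78 in KI:KO hearts (adjusted p = 2.8e-05), and the gap between these effects was 0.48 (adjusted p = 0.43).

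Against 6.97% of all genes, the methods' threshold held 9.09% of the ErbB, 16.1% of the potassium channel, 6.45% of the sarcomere and 7.69% of the calcium handling list. In the ErbB list 1 of 22 was positive (Erbb3, 0.46) and 1 negative (Erbb4, -0.47), both receptors being partners of ErbB2, with Tgfa, a ligand of EGFR, at 0.35, and 3 were positive without KI:KO replicate 3. Erbb4 was 7.06 to 7.38 in KI:KO hearts and 7.40 to 7.75 in the others (adjusted p = 0.554), and Erbb3 was lowest in ERRα KO at 6.14 to 6.64, overlapping with 6.48 to 6.95 in the others. Among 31 potassium channel genes 1 was positive (Kcnn3) and 4 negative, namely Kcnt2, Kcnj3, a subunit of the acetylcholine-gated channel of the atria (-0.52), Kcna2 (-0.46) and Abcc9, with a median of -0.12. Kcnt1, the paralog of Kcnt2, had -0.27 (adjusted p = 0.837). Of 31 sarcomere genes 1 was positive (Synpo2, 0.35, and 4 without KI:KO replicate 3) and 1 negative (Myom2, an M-band protein). Myom2 was 10.24 to 10.64 in KI:KO hearts and 11.01 to 11.27 in the other 3 groups, without overlap (interaction -0.71, adjusted p = 0.301), and Mybpc3 had -0.22. Of 26 calcium handling genes 2 were negative (Sln, sarcolipin, -0.63, and Ppp1r1a, an inhibitor of protein phosphatase 1, -0.48), and Cacna1c had -0.18.

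In the list of natriuretic and fetal heart genes 3 of 16 were positive at the threshold (Ccn2, Acta1 and Timp1). A further 2 were negative (Mybphl, -0.69, and Myl7, the atrial light chain, -0.78). Neither natriuretic peptide gene was at the threshold (Nppa 0.03, Nppb 0.299), and Ccn2 and Timp1 are also in the fibrosis list. Without KI:KO replicate 3 the list had 6 positive members, and without WT replicate 1 or ERRα KO replicate 2 it had 1. Without ERRα KO replicate 1 it had 4 negative members. Sln, Mybphl and Myl7 are also among 10 atrial cardiomyocyte markers, of which 5 were negative at the threshold and none positive (the others being Stard10 and Tbx5), with a median of -0.43. Myl7 was 10.20 to 10.30 in WT, 10.34 to 10.76 in ERRα KO, 10.44 to 10.98 in ErbB2 KI and 10.03 to 10.41 in KI:KO hearts. The mean log2 level of the atrial markers was 8.77 to 9.09 in WT, with every heart of the single models above that (9.10 to 9.27 in ERRα KO, 9.10 to 9.32 in ErbB2 KI), and 9.0 to 9.25 in KI:KO hearts. Their summed linear level was 16600 to 19100 in WT, 19400 to 20200 in ERRα KO, 19100 to 21400 in ErbB2 KI and 18600 to 21800 in KI:KO hearts. The part of atrial tissue in the values of Sln, Mybphl and Myl7 was not tested. Nerve genes had the same sign. Of 9 neuron markers 4 were negative at the threshold, Syt1, Snap25, Npy and Prph, and all 9 were below 0 (median -0.63). Snap25, a synaptic vesicle fusion protein named after its values were seen, read 4.59, 4.42 and 4.18 in WT, 6.83, 5.98 and 7.53 in ERRα KO, 6.13, 7.03 and 6.23 in ErbB2 KI, and 4.04, 3.91 and 6.79 in KI:KO hearts. KI:KO replicate 3 lay with the single models and the other 2 with WT. The interaction was -3.93 (adjusted p = 0.319), and Snap25 was called without KI:KO replicate 3. Neuron markers summed to 321 to 353 in WT, 432 to 675 in ERRα KO, 454 to 621 in ErbB2 KI and 336 to 588 in KI:KO hearts, and the part of nerve tissue was not tested. The threshold held 31.2% of the fetal heart list, 50% of the atrial and 44.4% of the neuron markers, against 6.97% of all genes.

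In the neurotrophin list 5 of 13 were negative and none positive, Ngfr, Ntrk3, the receptor of neurotrophin-3 (-0.93), Sort1, a sorting receptor (-0.44), Ntrk2 and Sorcs2, with a median of -0.10. There were 3 when WT replicate 1 or 2, ERRα KO replicate 3 or ErbB2 KI replicate 1 or 2 was left out. In the neuropeptide Y list all 8 genes were below 0 (the nearest at -0.11, close to the shift of median centring), 2 at the threshold (Npy4r and Npy, -1.44), Ppy being at -0.31. Npy was 4.96 to 5.15 in WT, 5.77 to 6.47 in ERRα KO, 5.62 to 6.35 in ErbB2 KI and 5.17, 5.12 and 6.29 in KI:KO hearts. In the nectin list 1 of 13 was at the threshold (Pvr), and Crtam and Cadm1 each had -0.25. Circadian clock genes had 2 of 19 negative (Bhlhe40 and Per3, -0.55), and Nr1d1, the repressor REV-ERBα, had -0.60 at adjusted p = 0.708 and -0.30 without KI:KO replicate 3, where it read 8.96 against 9.77 and 9.96. Per3 had -0.14 without the set of 4 arrays. Heat shock genes had 1 of 21 negative (Dnajb1, -0.70), with Hspe1 at 0.42 and Hspb7 at 0.19, but without KI:KO replicate 3 there were 9 positive and none negative.

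Among other cell type markers, all 7 neutrophil markers were above 0, but the lowest, at 0.03, lay within the shift of median centring. Their median was 0.59, with 1 at the methods' threshold (Mmp8, 14.3%). Their mean log2 level was 3.70 to 3.75 in WT, 3.65 to 3.92 in ERRα KO, 3.62 to 3.80 in ErbB2 KI and 3.81 to 4.66 in KI:KO hearts, and 4 were positive at the threshold without KI:KO replicate 3. Outside KI:KO hearts these mean levels lay below the cutoff for dim rows of 4.63, and so did the mean of the KI:KO group (4.27). Of 8 mesothelial markers 3 were positive at the threshold (37.5%, Upk1b, Lrrn4 and Upk3b), with a median of 0.39, but none when ErbB2 KI replicate 3 or ERRα KO replicate 2 was left out and 1 without WT replicate 1. The part of neutrophils in the Lcn2, Saa3 and chemokine values, and of mesothelium, was not tested. None of 10 cardiomyocyte markers was at the threshold (median -0.07). Endothelial (1 positive of 10, with 3 negative without KI:KO replicate 3), fibroblast (2 negative of 10), smooth muscle (1 negative of 10), lymphatic (1 positive of 6), Schwann (1 negative of 7) and skeletal muscle markers (1 positive of 10) had medians of -0.07, 0.09, -0.13, 0.06, -0.26 and 0.02. None of 8 lymphocyte markers (median -0.39) and not the 1 measured red cell marker (0.96) was at the threshold. Of all genes 6.97% were at it. Leaving out single arrays gave -0.67 to 0.03 for the lymphocyte median and 0.06 to 1.42 for the red cell marker. The mean level of lymphocyte markers was 4.30 to 5.70 in ErbB2 KI hearts, and the red cell marker was 5.65 to 8.38 in KI:KO hearts.

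The number of calls depended on single hearts. Leaving out KI:KO replicate 3 gave 22 genes called for the interaction and leaving out ErbB2 KI replicate 3 gave 16, whereas leaving out any of the other 10 arrays gave 1 or 2. Without KI:KO replicate 3 the calls included Ccl9 (2.02, adjusted p = 0.00808), Lcn2 (1.35), Serpina3n (1.41), Pvr, Atf3, Myom2 (-0.83) and, named after their values were seen, Ptgs2, the inducible cyclooxygenase, Ccl6, Ccn1, Clec4d, Gadd45g and Snap25. Ptgs2 read 7.03 and 7.68 in KI:KO replicates 1 and 2, 5.86 in replicate 3 and 4.54 to 5.27 in the 9 other hearts, so that replicate 3 lay between the rest of its group and the other groups. Ccl6, a chemokine, was 7.83, 7.87 and 7.01 in KI:KO hearts against at most 6.55. Without the whole set of 4 arrays 22 genes were called as well, with Fasn (-4.00, adjusted p = 0.00874), Ccl9 (1.94), Atf3, Car3, Acaca and Snap25 among them. Among list members at the methods' threshold, its omission moved Ccn2 to 0.31, Dio2 to 0.55, Dnajb1 to -0.41, Oasl2 to 0.54 and Xaf1 to 0.19.

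**Figure D5:**
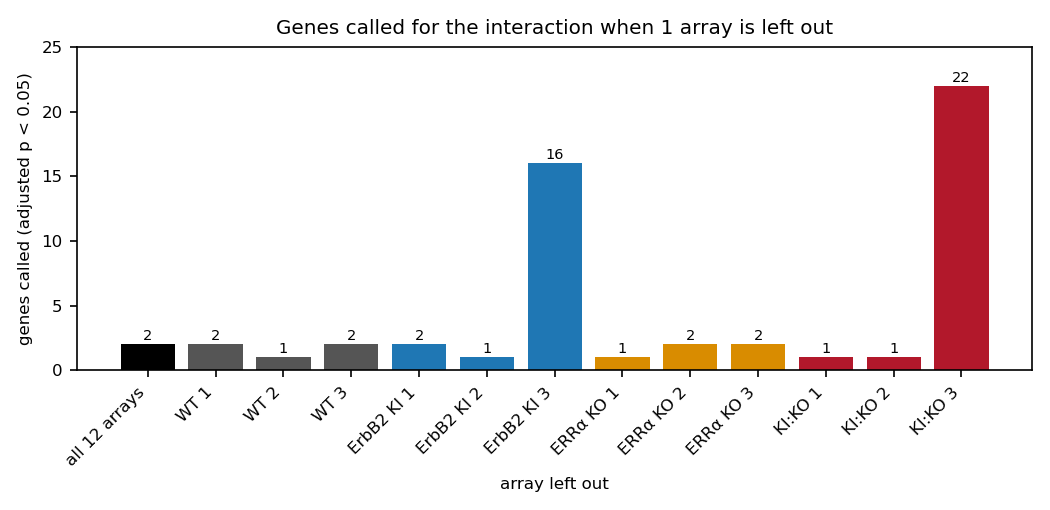
Genes called for the interaction at an adjusted p under 0.05 with all 12 arrays (black bar, 2 genes) and with each array left out, coloured by group. The count is 22 when KI:KO replicate 3 is left out, 16 for ErbB2 KI replicate 3, and 1 or 2 for any other array.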

How the data were processed

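Heart RNA of 12 mice was measured on 12 arrays. The deposited table holds log2 values, 1 per row and array, which the authors made with RMA (Expression Console 1.4.1) and which were used as they are. It names no genome build. Of 41345 rows, 23521 had 1 gene in the platform annotation, 1820 several and 16004 no name here. Each gene was represented by its row with the highest mean. The methods compared groups by ANOVA (unadjusted p under 0.05, 1.2-fold). Here limma 3.58.1 (R 4.3.3) fitted 4 group means to all 12 arrays (residual df 8, prior df 3.81), and adjusted p are Benjamini-Hochberg over 22180 genes, two-sided. The fit was tested on simulated data whose noise was independent between arrays, so it did not cover a set of arrays that deviate together. P-values measure the spread between these mice.

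The members, the 28 gene lists and the cell type markers were chosen with earlier results of these data known. Named were the 15 genes with the smallest p of each sign, called genes, Esrra, Erbb2 and up to 3 genes per list, and any others after their values were seen. List symbols absent from the table were matched through RefSeq synonyms. Chromosomes and promoters are from RefSeq on GRCm38.p6. Replicate numbers did not pair the hearts (residual correlations -0.19 to 0.20, 3 of 18 pairs over 0.1). Alternatives were an ordinary linear model (the methods' test), the linear scale, a dim filter (mean above 4.63, the 40th percentile), all rows, the mean of a gene's rows, quantile normalization, median centring, an intensity trend, array weights, a replicate block, fold limits, leaving out each array, and, added after seeing the data, a block for or omission of the set of 4 arrays. Python 3.11.15 with matplotlib 3.10.9 drew the figures.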

Additional observations from a re-analysis of the deposited data

Results flagged for a closer look

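Kcnt2 was picked out because the effect of the ErbB2 KI allele differed between hearts with and without ERRα by the test of the interaction itself. The interaction was -3.05 on the log2 scale, and the effect was 2.99 with ERRα and -0.06 without it.

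Ddit4 was picked out for the same reason, with an interaction of 1.59. The ErbB2 KI effect was -0.35 with ERRα and 1.24 without it.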

How the results depend on the processing

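Kcnt2 was called under every alternative on the log2 scale (interaction -3.17 to -2.97), and not on the linear scale. Ddit4 kept its sign under all alternatives and was called in 10 of the 23 on the log2 scale (adjusted p 0.00549 to 0.191). Among 95 named genes and 24 alternatives the sign turned once, for Erbb2, whose interaction of -0.09 lay between -0.18 and 0.004 with an array left out, the positive value without ERRα KO replicate 3.

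The number of genes called for the interaction, 2 in the fit reported, was 1 under the ordinary linear model, quantile normalization, the replicate block and the block for the set of 4 arrays (both blocks kept Kcnt2 and lost Ddit4, adjusted p = 0.109 and 0.0561), 0 on the linear scale, 3 with median centring, 4 with array weights, 5 over all rows, 6 without dim genes, 18 with an intensity trend and 22 without the set of 4. The methods' threshold held 2462 rows over all rows (1381 negative), 529 negative genes without dim genes, 1461 positive and 442 negative with median centring, 1193 negative without the set of 4, and 507 genes at a fold limit of 1.5. It was not counted on the linear scale, where a fold of the interaction is not defined. Of genes with unadjusted p under 0.01, 5.58% had both single models low, against 8.73%.

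The calls in the 2-group differences moved as follows. ErbB2 KI against WT had 9 without dim genes, 5 over all rows, 11 with the trend, 7 with array weights and 13 without the set of 4. KI:KO against ERRα KO had 234, 34, 294, 204 and 127 in that order, 163 on the linear scale and 38 with the replicate block. ERRα KO against WT had 871, 303, 908, 871 and 243. KI:KO against ErbB2 KI had 1329, 513, 1358 and 462, array weights staying within 1.5 times. The causes were not tested.

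Leaving out each array in turn gave 1 to 22 interaction calls and 1306 to 1927 genes at the methods' threshold (637 to 1001 positive, 666 to 953 negative). The calls ranged from 2 to 15 for ErbB2 KI against WT, 17 to 248 for KI:KO against ERRα KO, 210 to 585 for ERRα KO against WT and 401 to 839 for KI:KO against ErbB2 KI. The share of genes with KI:KO apart was 15.4% to 27.5% (high) and 8.76% to 16.7% (low), and with the single models apart 13.3% to 16.4% (high) and 6.95% to 10.7% (low). The number of arrays limits the precision of every value, and a dim row understates a change.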

Other observations

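Over all 41345 rows, 5 were called for the interaction, Kcnt2 and 4 rows without a single gene name. The interactions of these 4 were -1.66, -2.34, -2.34 and -1.58 (adjusted p between 0.0241 and 0.0375).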
